A study of Mus musculus with 18 samples.

Results

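The histone genes of the mouse clusters (symbols beginning Hist1h, Hist2h, Hist3h or Hist4h) were followed through gene counts of poly(A)-captured RNA from T23 cells, which are described as mouse prostate adenocarcinoma cells. All 70 genes that carry such a symbol in the GENCODE M21 annotation of GRCm38 were among the 55487 genes listed. They comprised 6 linker genes (H1) and 64 core genes, of which 20 are H2A, 19 H2B, 12 H3 and 13 H4 by symbol, pseudogenes included. On chromosome 13 lie 56 of them, on chromosome 3 lie 10, on chromosome 11 lie 3 and on chromosome 6 lies 1. In annotation, 67 are protein-coding and 3 are pseudogenes. A count in at least 1 library was found for 52 members, whereas 18 stood at 0 in all 18 libraries. The filter on low counts (minimum count 10) was passed by 14 members, 5 linker and 9 core, and only these were tested.

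The 18 libraries fall into 6 groups of 3 replicates. T23 cells had been co-cultured with fibroblasts under enzalutamide (ENZA, an antiandrogen drug) and isoliquiritigenin (ISO, a plant chalcone), here called ISO co-cultures, or with fibroblasts under ENZA without ISO (ENZA co-cultures). T23 cells without fibroblasts had received ENZA (ENZA monocultures). Untreated T23 cells had been co-cultured with SPARC-deficient fibroblasts (SparcKO co-cultures) or wild-type fibroblasts (wild-type co-cultures), and the last group was T23 cells alone. Both ENZA-treated co-culture groups are described as holding human fibroblasts, while their titles carry the fibroblast name of the wild-type co-cultures, so the fibroblasts of treated and untreated co-cultures may differ. Doses, times, and whether T23 cells were separated from fibroblasts before lysis are not given in the sources used here. Neither do they say that replicates are separate cultures, so p-values measure the spread between these libraries, which may be technical. The series title concerns loss of SPARC in prostate stroma and neuroendocrine differentiation. The design sets co-culture, loss of Sparc in the fibroblasts and each drug against a comparison group. Between ENZA and wild-type co-cultures, and in any contrast built on these, the fibroblasts may differ as well as the drug.

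Library totals were 18.8 to 26.7 M counts in 17 libraries and 16.1 M counts in ENZA monoculture replicate 2. In that library ribosomal RNA took 26.5% of counts, against 0.0392% to 0.139% in the other 17, and it is therefore shown apart and left out of every fit. Against the tissue label, 9 of 10 prostate epithelial markers stayed under 1 CPM (counts per M counts, scaled) in all 17 libraries, among them Epcam, Krt8, Krt18 and Cdh1, whereas Hoxb13 did not. Of 10 fibroblast markers, 9 were at or above 1 CPM in all 17 libraries, T23 cells alone included, with Lum the exception. Sparc, the gene lacking in the fibroblasts, stood at 2977 to 3110 CPM in SparcKO co-cultures, against 3043 to 3087 CPM in wild-type co-cultures and 3187 to 3213 CPM in T23 cells alone, so these counts, which include the T23 cells' own, do not check that label. In bulk RNA, fewer cells of a type and less RNA per cell cannot be told apart.

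Core histones wind DNA into nucleosomes, and linker histones bind where the DNA enters and leaves them. Most of their messages are made in S phase and end in a conserved stem-loop that the stem-loop binding protein SLBP holds, in place of a poly(A) tail. Messages of some of these genes are also made with a poly(A) tail from a signal further downstream, often in cells that have left the cycle, and replacement histones such as H3f3b come from ordinary polyadenylated messages. Capture on poly(A) therefore reads a small and particular share of these messages.

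The stem-loop is the feature that sets these messages apart, so its letters are shown first, as read in the GENCODE M21 transcripts. The pattern of 16 bases (GG, any 2 bases, CTTTT, any base, AG, any 2 bases, CC) was searched on the sense strand within 300 bases after the stop codon. It was found in 44 of the 54 members with an annotated 3′ UTR (81.5%), against 6 of 21054 other protein-coding genes (0.0285%). They took 6 forms, in which the 4 bases of the loop are in capitals.
Hist1h1c, Hist1h1d, Hist1h1e, Hist3h2a, Hist1h2bj and 21 other members: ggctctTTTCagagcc
Hist1h4c, Hist1h4d, Hist1h4h and 4 other H4 members: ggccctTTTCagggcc
Hist1h3c, Hist1h3f, Hist1h2bb, Hist1h2bk and 2 other members: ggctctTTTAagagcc
Hist1h4i and Hist2h4: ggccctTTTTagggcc
Hist1h4b and Hist1h4j: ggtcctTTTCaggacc
Hist2h2ac: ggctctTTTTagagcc
The poly(A) signal AATAAA, the hexamer that directs ordinary cleavage and tailing, was searched on the same strand over the whole annotated 3′ UTR. It was present in 19 of those 54 members (35.2%), against 82.5% of the other protein-coding genes with a 3′ UTR. Annotated 3′ UTRs of members can be short, 48 bases in Hist1h1a for example, so absence holds only for the annotated stretch. The letters of neither pattern can overlap the other, and a match of letters is a description, not a sign of use.

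Histone messages were scarce outside the library set apart. Summed over all members, their level was 18.2 to 32.2 CPM in the 17 libraries, and 5 members held 68.6% of the 8544 counts. Of 70 members, 61 remained under 1 CPM in all 17 libraries and 5 reached 1 CPM in every one. These 5 were also the highest by mean level over 17 libraries. Hist1h1c, a linker gene at chr13:23738808-23740367 on the plus strand, averaged 6.49 CPM. Hist1h4i, an H4 gene at chr13:22040636-22041362 on the minus strand, averaged 2.57 CPM, and the H2B gene Hist1h2bc at chr13:23684199-23692908 averaged 2.51 CPM. Hist3h2a (H2A, chr11:58954685-58956830) followed with 2.19 CPM and Hist2h2be (H2B, chr3:96221119-96223738) with 1.70 CPM. The annotated 3′ UTRs of these 5 ran for 376 to 2192 bases, and AATAAA was present in 4 of them, Hist1h4i being the exception. Of the other 9 tested members, AATAAA was found in 1, Hist1h1d, and Hist1h1b has no annotated 3′ UTR to search. No stem-loop match lay within the window of Hist1h2bc or Hist2h2be.

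Per kilobase of exon the order by mean level over 17 libraries was Hist1h1c with 4.16 CPM per kb, Hist1h4i with 3.53, Hist1h2bc with 2.17, Hist1h2bj with 2.00 and Hist1h1a with 1.26. How well short reads can place these genes differed, since many copies are nearly alike. Of all 50-base windows of a member's exons, a median of 75.8% were unique among transcripts for the 14 tested members, 50.4% for the 38 others with counts and 12.9% for the 18 at 0. A count of 0 in a member such as Hist2h2aa2, with no unique window, may reflect reads that match several places, whose treatment is not given in the sources used here. For a library with no count, up to 3 counts or 0.107 to 0.156 CPM remain possible in the 17 libraries, counting error only.

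**Figure D1:**
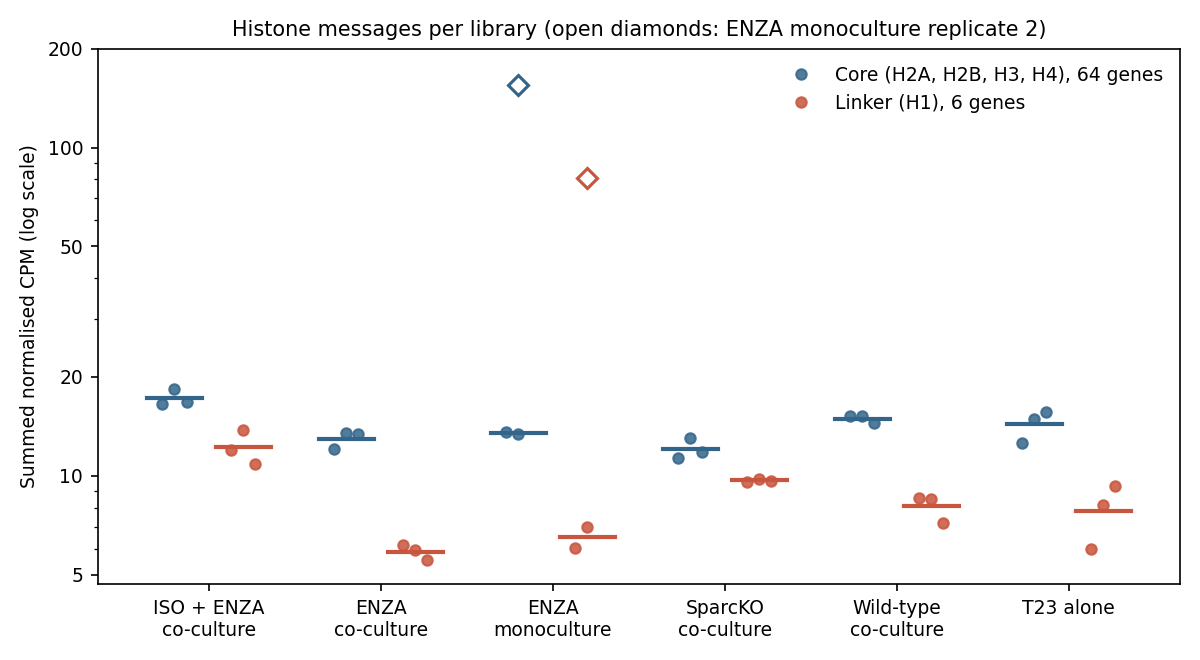
Summed normalised CPM of the 64 core and 6 linker histone genes in each library, on a log axis; filled points are libraries, bars are means of the filled points, and open diamonds are ENZA monoculture replicate 2. The ISO co-cultures held the highest sums of the 17 libraries in both classes, and ENZA monoculture replicate 2 stood at 155 CPM core and 80.9 CPM linker.

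Core messages outnumbered linker messages in each of the 18 libraries. Linker genes summed to 12.2 ± 1.44 CPM in ISO co-cultures, 5.87 ± 0.322 CPM in ENZA co-cultures, 9.68 ± 0.108 CPM in SparcKO co-cultures, 8.08 ± 0.780 CPM in wild-type co-cultures and 7.81 ± 1.68 CPM in T23 cells alone (SD, n = 3 each). ENZA monoculture replicates 1 and 3 had 6.02 and 6.97 CPM. No ISO library overlapped any ENZA co-culture library in this sum, and the lowest SparcKO library (9.60 CPM) lay above the highest wild-type one (8.58 CPM). Core genes summed to 17.2 ± 1.04 CPM in ISO co-cultures and 13.0 ± 0.817 CPM in ENZA co-cultures. They summed to 12.1 ± 0.890 CPM in SparcKO co-cultures, 14.9 ± 0.419 CPM in wild-type co-cultures and 14.4 ± 1.55 CPM in T23 cells alone. Core sums thus lay higher in ISO than in ENZA co-cultures and lower in SparcKO than in wild-type co-cultures, without overlap in either pair. No test was made on a sum, because the members were chosen with earlier results known.

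The linker share of the summed histone CPM followed from both. It was 41.4% ± 1.77 in ISO co-cultures, 31.2% ± 2.40 in ENZA co-cultures, 44.6% ± 1.52 in SparcKO co-cultures, 35.03% ± 1.61 in wild-type co-cultures and 34.98% ± 2.62 in T23 cells alone. Both ENZA monocultures of the fit had 30.7% and 34.3%. Hist1h1c made up 91.7% ± 2.58 of the linker CPM in ISO co-cultures, 65.5% ± 1.03 in ENZA co-cultures, 84.2% ± 2.77 in SparcKO co-cultures, 75.3% ± 2.56 in wild-type co-cultures and 63.4% ± 2.76 in T23 cells alone. Without Hist1h1c, the remaining linker genes took 4.36% to 6.78% of the remaining histone CPM in ISO co-cultures, against 12.1% to 15.1% in ENZA co-cultures. The higher linker share of the ISO co-cultures thus came from Hist1h1c, and the other 5 linker genes together were lower there.

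**Figure D2:**
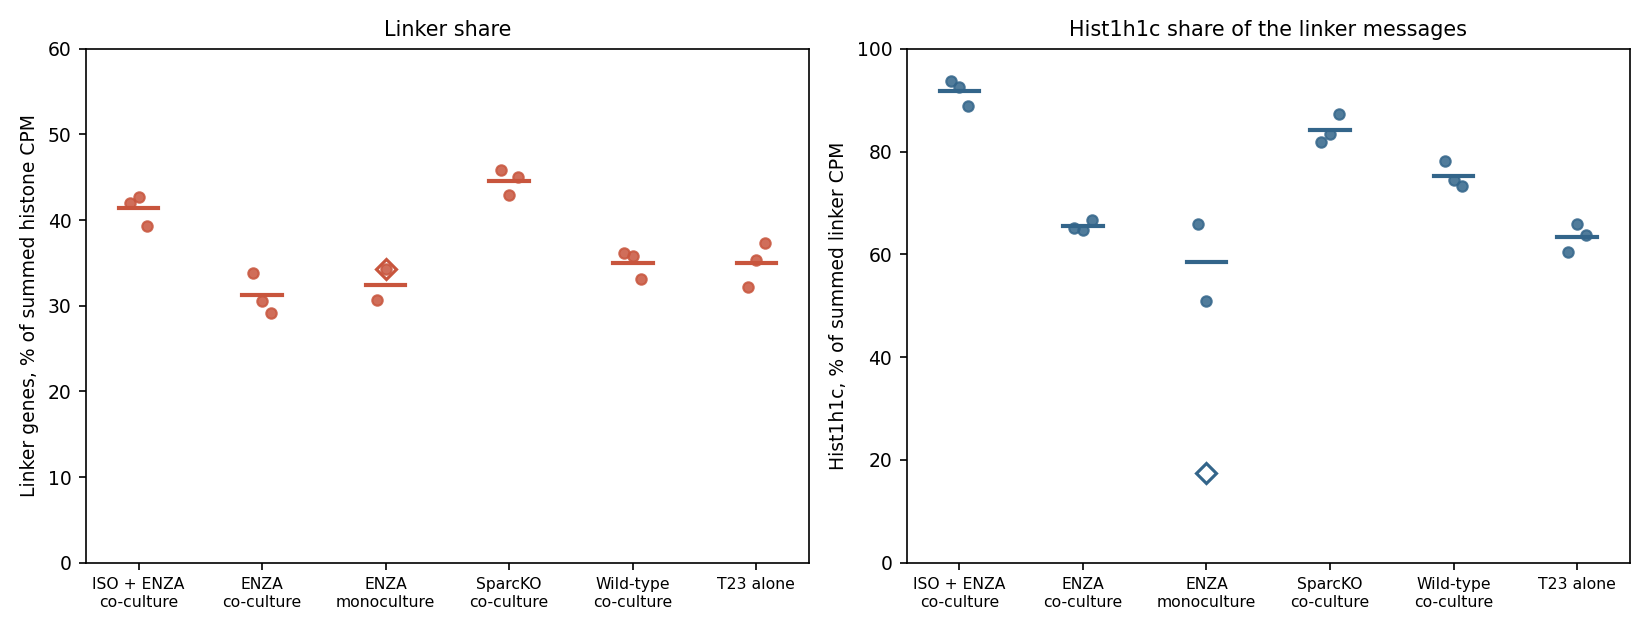
Left, linker genes as a percent of summed histone CPM; right, Hist1h1c as a percent of summed linker CPM; points are libraries, bars are means of the filled points, and the open diamond is ENZA monoculture replicate 2. Hist1h1c took 88.8% to 93.7% of linker CPM in ISO co-cultures and 17.5% in ENZA monoculture replicate 2.

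Members with the hexamer and all other members differed in the direction of their mean sums in 5 of 7 comparisons. The 19 members with AATAAA in the annotated 3′ UTR summed to 22.1 ± 2.71 CPM in ISO co-cultures, against 10.3 ± 0.517 CPM in ENZA co-cultures. The median length of the longest annotated 3′ UTR was 1258 bases for these 19 and 74.5 bases for the other 51. The sets thus also differ in how much sequence was searched. The other 51 members include those with no annotated 3′ UTR to search, so not all of them are known to lack the hexamer. These 51 summed to 7.38 ± 0.790 CPM in ISO co-cultures, against 8.57 ± 0.768 CPM in ENZA co-cultures. Single libraries of both groups overlapped there (6.62 to 8.20 CPM against 7.74 to 9.25 CPM). In SparcKO co-cultures the members with the hexamer summed to 15.2 ± 1.18 CPM, against 13.0 ± 0.967 CPM in wild-type co-cultures. The other 51 summed to 6.57 ± 0.628 CPM in SparcKO co-cultures, against 10.05 ± 0.301 CPM in wild-type co-cultures, and here no library overlapped (5.87 to 7.09 CPM against 9.75 to 10.4 CPM). In SparcKO co-cultures against T23 cells alone the directions were the same as against wild-type co-cultures, without overlap only for the other 51 (6.57 ± 0.628 against 9.79 ± 1.11 CPM). In both ENZA monocultures of the fit against T23 cells alone, and in ENZA co-cultures against ENZA monocultures, the directions differed as well, but libraries overlapped in both sets. Hist1h1c made up 50.7% ± 0.914 of the CPM of the members with the hexamer in ISO co-cultures, 37.5% ± 1.29 in ENZA co-cultures, 53.9% ± 3.01 in SparcKO co-cultures, 46.9% ± 2.37 in wild-type co-cultures and 39.8% ± 3.42 in T23 cells alone. By itself it averaged 8.15 ± 0.28 CPM in SparcKO co-cultures, 6.09 ± 0.75 CPM in wild-type co-cultures and 4.97 ± 1.21 CPM in T23 cells alone. The higher sums with the hexamer in both SparcKO comparisons thus came mainly from this 1 gene, not from the set.

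Between ISO co-cultures and ENZA co-cultures, 5 of the 14 tested members were called at an adjusted p under 0.05, 4 higher and 1 lower (edgeR quasi-likelihood test, Benjamini-Hochberg over 13886 genes). The share called among all genes tested was 30.4% (14.9% higher and 15.5% lower), so 5 of 14 is near the background. Hist1h1c, which encodes the linker histone H1.2, had 11.2, 12.7 and 9.67 CPM in ISO co-cultures, against 4.01, 3.84 and 3.68 CPM in ENZA co-cultures. Each ISO library stood above all ENZA co-cultures, and the log2 fold change was 1.54 ± 0.14 (SE) with an adjusted p of 2.37e-09. Hist1h2bc had 4.55, 4.46 and 3.74 CPM in ISO co-cultures, against 1.68, 2.54 and 2.03 CPM in ENZA co-cultures. Again the groups did not overlap, and edgeR gave a log2 fold change of 1.03 ± 0.18 with an adjusted p of 4.91e-05.

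The other core members that rose changed less. Hist2h2be had 2.11, 2.25 and 2.19 CPM in ISO co-cultures, against 1.21, 1.40 and 1.31 CPM in ENZA co-cultures (log2 fold change 0.74 ± 0.22, edgeR adjusted p = 0.0110). Hist3h2a had 2.86, 3.91 and 2.65 CPM in ISO co-cultures, against 2.05, 2.14 and 1.69 CPM in ENZA co-cultures (0.67 ± 0.20, edgeR adjusted p = 0.0113). For Hist3h2a the value rests on ISO replicate 2 and ENZA co-culture replicate 3, since the adjusted p was 0.0935 without the first and 0.0562 without the second. Its exons share 708 of 2146 bases with those of Trim17 on the same strand, so their reads may not be separable. All 4 members that rose hold AATAAA in the annotated 3′ UTR. Of the 5 tested members that hold it, Hist1h1d was the 1 not called, and it was lower. It had 0.143 to 0.276 CPM in ISO co-cultures, against 0.339 to 0.513 CPM in ENZA co-cultures, without overlap.

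Hist1h1a, the gene of linker histone H1.1, was the called member that fell. It had 0.215, 0.460 and 0.420 CPM in ISO co-cultures, against 1.03, 1.30 and 0.823 CPM in ENZA co-cultures, a log2 fold change of -1.54 ± 0.40 with an edgeR adjusted p of 0.00418. With ENZA monoculture replicate 2 in the fit, its SE was 1.05 and its adjusted p 0.303. Its annotated 3′ UTR is 48 bases long and holds no hexamer. Uncalled members below 1 CPM that lack it included Hist1h4d with a log2 fold change of -1.04 ± 0.45 (edgeR adjusted p = 0.0789). Hist1h4i, an H4 gene with no hexamer and a level above 2 CPM, gave 0.35 ± 0.18 (edgeR adjusted p = 0.150). All 5 calls held when the title index, which restarts after title number 16, was a term of the fit. The restart puts all ISO libraries with ENZA co-culture replicates 2 and 3.

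**Figure D3:**
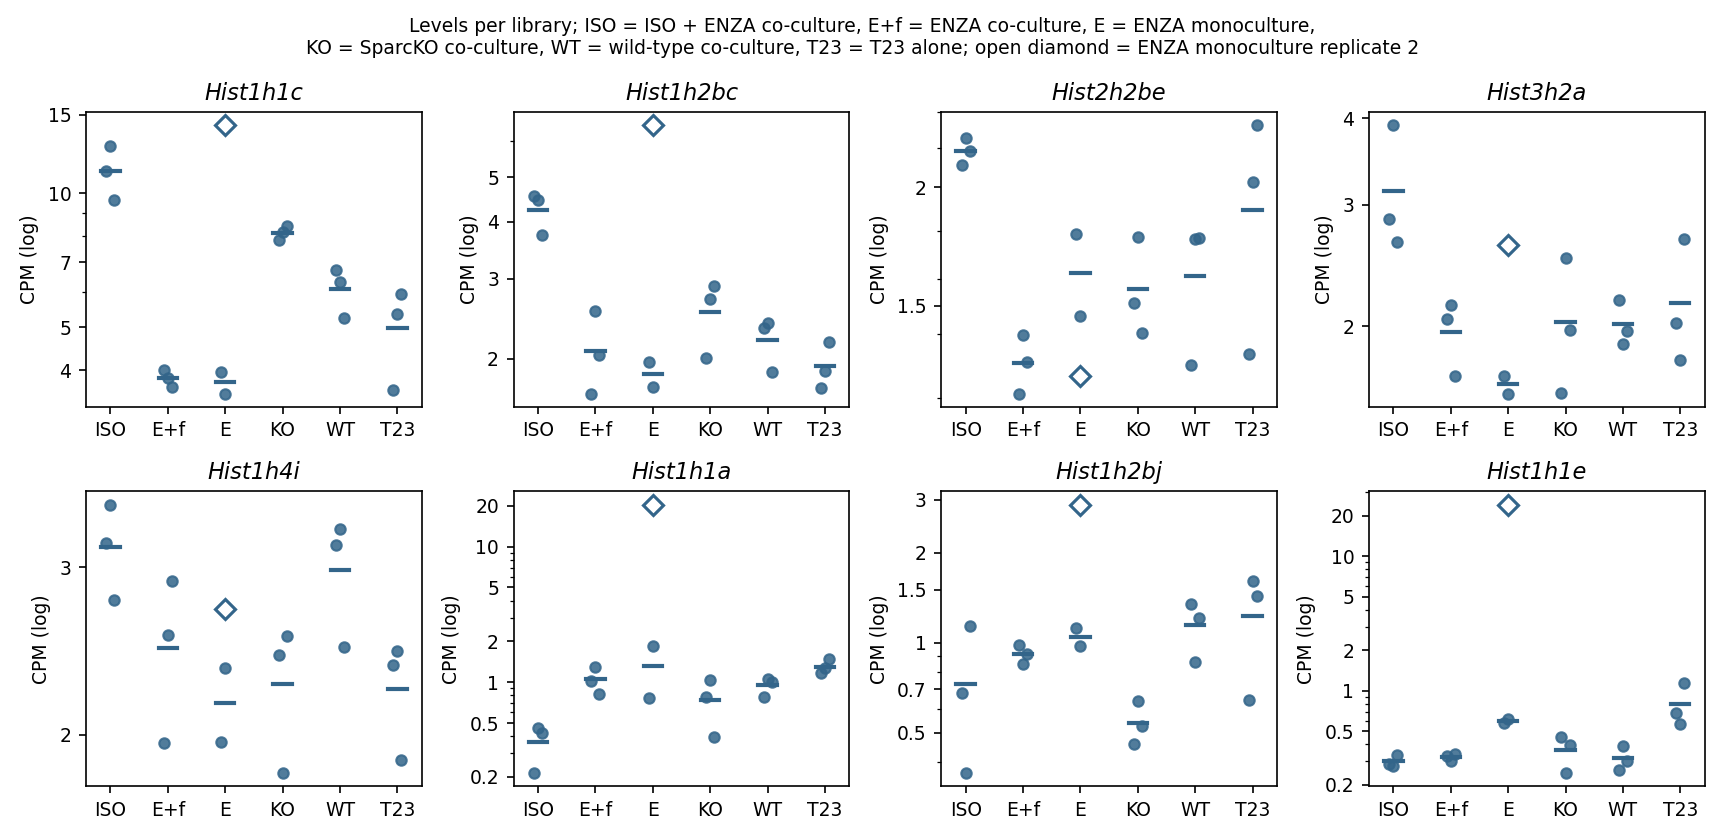
Normalised CPM of 8 histone genes in each library on log axes; filled points are libraries, bars are means of the filled points, and open diamonds are ENZA monoculture replicate 2. Hist1h1c and Hist1h2bc stood highest in ISO co-cultures among the 17 libraries, and Hist1h1a stood lowest there on average; the diamond lies above all other points for 5 of the 8 genes.

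Between SparcKO co-cultures and wild-type co-cultures, Hist1h1c was the 1 tested member of 14 called, and it was higher. Of all genes tested, 15% were called (8.58% higher, 6.43% lower), so this count is not above the background. Hist1h1c had 7.87, 8.18 and 8.41 CPM in SparcKO co-cultures, against 6.71, 6.32 and 5.26 CPM in wild-type co-cultures, without overlap (log2 fold change 0.42 ± 0.14, edgeR adjusted p = 0.0400). The call is marginal: it was lost without wild-type replicate 2 or 3, or without any 1 of the 3 SparcKO replicates, with adjusted p of 0.0604 to 0.148. Among members that did not pass, Hist1h2bj (H2B) had 0.457, 0.641 and 0.526 CPM in SparcKO co-cultures, against 1.35, 0.863 and 1.21 CPM in wild-type co-cultures (-1.05 ± 0.37, edgeR adjusted p = 0.0561). Hist1h4d had 0.320, 0.246 and 0.219 CPM in SparcKO co-cultures, against 1.04, 0.510 and 0.404 CPM in wild-type co-cultures (-1.27 ± 0.48, edgeR adjusted p = 0.0774). In both, each SparcKO library stood below all wild-type libraries.

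Against T23 cells alone, the SparcKO co-cultures had 3 called members of 14, 1 higher and 2 lower, where 12.4% of all genes tested were called (7.47% higher, 4.95% lower). Hist1h1c averaged 8.15 ± 0.28 CPM in SparcKO co-cultures, against 4.97 ± 1.21 CPM in T23 cells alone (n = 3 each; T23 libraries 3.62, 5.37 and 5.94 CPM), a log2 fold change of 0.72 ± 0.14 with an edgeR adjusted p of 0.000839. Hist1h2bj fell to 0.541 CPM in SparcKO co-cultures, against 0.646, 1.60 and 1.43 CPM in T23 cells alone (-1.16 ± 0.37, edgeR adjusted p = 0.0352). Hist1h1e, the gene of linker histone H1.4, had 0.457, 0.246 and 0.394 CPM in SparcKO co-cultures, against 0.689, 0.565 and 1.14 CPM in T23 cells alone (-1.09 ± 0.37, edgeR adjusted p = 0.0487). Both of these calls were lost without T23 replicate 3 or any 1 SparcKO replicate; Hist1h2bj also lost its call without T23 replicate 2, and Hist1h1e without T23 replicate 1, in DESeq2 (adjusted p = 0.134) and in 11 of 14 alternatives in all. Exons of Hist1h1e share 496 bases with those of Hist1h2be on the same strand. This comparison and that with wild-type co-cultures share the SparcKO libraries.

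Between ENZA co-cultures and wild-type co-cultures, 1 of 14 members was called, where 10.2% of all genes tested were (5.26% higher, 4.98% lower). Hist1h1c fell to 4.01, 3.84 and 3.68 CPM in ENZA co-cultures, against 6.71, 6.32 and 5.26 CPM in wild-type co-cultures, without overlap (log2 fold change -0.66 ± 0.16, edgeR adjusted p = 0.00527). With the title index series as a term, the change was -0.60 ± 0.22 and the adjusted p was 0.160, since ENZA co-culture replicate 1 is then the 1 treated co-culture in the series of the wild-type libraries. Hist1h1c was thus lower in ENZA than in wild-type co-cultures and higher in ISO than in ENZA co-cultures, and both comparisons share the ENZA co-cultures. The higher value in SparcKO and the lower value in ENZA co-cultures were both read against the same 3 wild-type libraries. With ENZA monoculture replicate 2 in the fit, Hist1h1c kept its call for ISO against ENZA co-cultures and lost it in the other 3, at nearly the same fold changes and larger SE. These were 0.41 ± 0.29 for SparcKO against wild-type co-cultures (edgeR adjusted p = 0.402), 0.72 ± 0.30 for SparcKO co-cultures against T23 cells alone (edgeR adjusted p = 0.140) and -0.66 ± 0.32 for ENZA against wild-type co-cultures (edgeR adjusted p = 0.245).

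**Figure D4:**
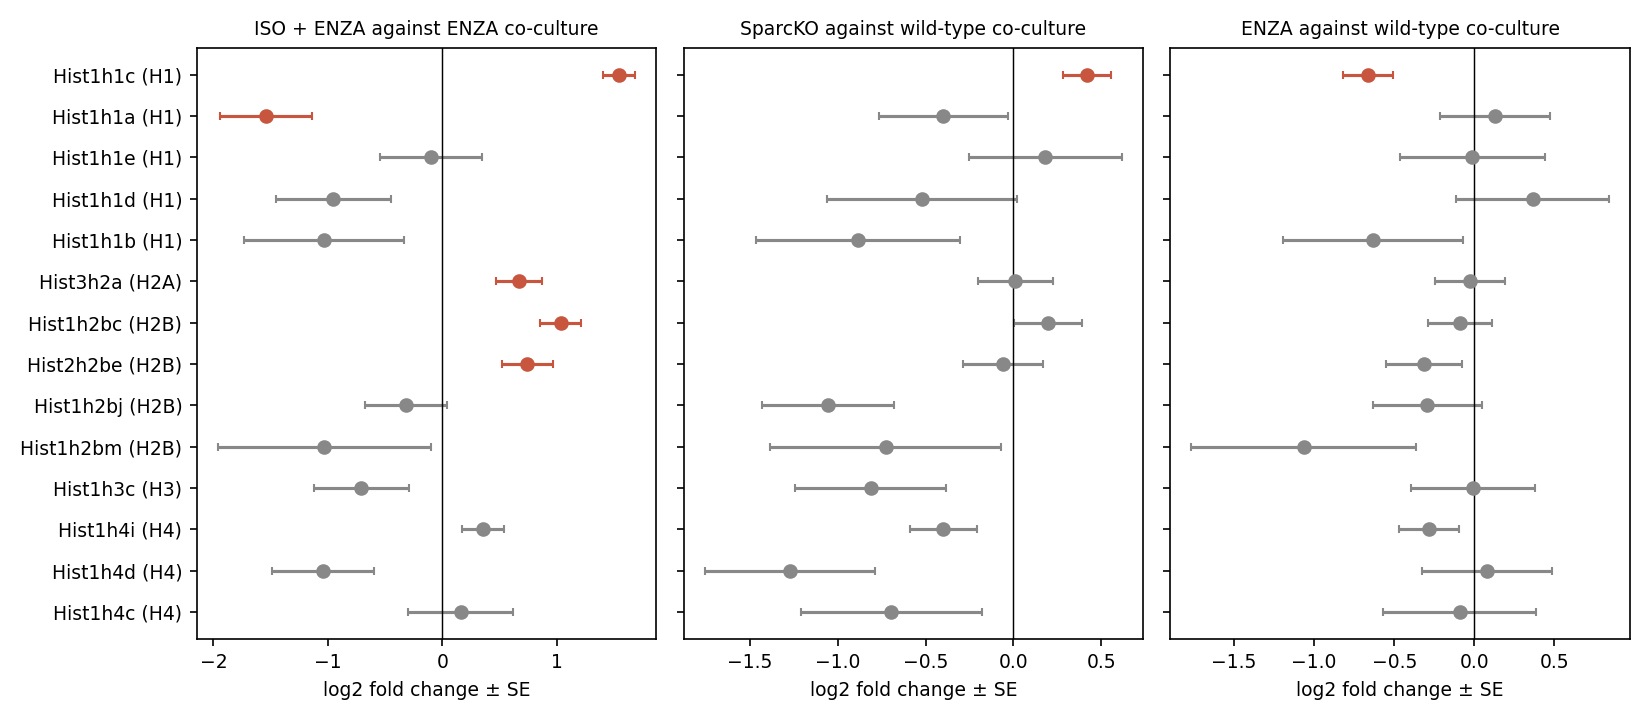
Log2 fold change ± SE of the 14 tested members in 3 comparisons; points in red passed an edgeR adjusted p of 0.05 and grey points did not. Hist1h1c is the member called in all 3, at 1.54, 0.42 and -0.66; the first value and the last share the ENZA co-cultures, and the second and the last share the wild-type co-cultures.

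No member was called in the remaining 3 comparisons or in the interaction by edgeR or by DESeq2. Between wild-type co-cultures and T23 cells alone, 2 of 14 had an unadjusted p under 0.05 and 1.13% of all genes were called (0.562% higher, 0.569% lower). Hist1h1e had 0.260, 0.392 and 0.303 CPM in wild-type co-cultures, against 0.689, 0.565 and 1.14 CPM in T23 cells alone (log2 fold change -1.27 ± 0.38, edgeR adjusted p = 0.103), again without overlap. Between ENZA monocultures and T23 cells alone, 1 of 14 had an unadjusted p under 0.05 and 9.23% of all genes were called (4.85% higher, 4.38% lower). Hist1h1c had 3.97 and 3.55 CPM in both ENZA monocultures of the fit, against 3.62, 5.37 and 5.94 CPM in T23 cells alone (-0.39 ± 0.18, edgeR adjusted p = 0.192). Between ENZA co-cultures and ENZA monocultures 0 members had an unadjusted p under 0.05, and 2.82% of all genes were called (1.6% higher, 1.22% lower). The interaction, which asks whether ENZA acts differently with fibroblasts present, called 0 of all genes tested (0%), and 0 members had an unadjusted p under 0.05.

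ENZA monoculture replicate 2 held a different histone profile from the other 17 libraries. Its members summed to 236 CPM on 2611 counts, and 38 members reached 1 CPM. Of the 52 members with counts, 44 were above all 17 other libraries (84.6%), against 11.8% of 29306 other genes with counts. This describes 1 library and has no replicate. Several non-coding RNAs were also high in that library. Their CPM are on unscaled totals, unlike the histone levels. The scaling factor, by which totals are multiplied for the other levels, was 0.687 in this library and 0.999 to 1.05 in the other 17. Mitochondrial ribosomal RNA stood at 19003 CPM there, against 505 to 1133 CPM in the other 17 libraries, small nuclear RNA at 129 CPM against 2.01 to 3.89, and the biotype misc_RNA at 419 CPM against 1.78 to 3.20. Small nucleolar RNA stood at 57.1 CPM, against 9.55 to 17.3 CPM. The part of these RNAs in the histone levels was not tested.

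The higher level was uneven across members. Against the mean of ENZA monoculture replicates 1 and 3, the 5 highest members stood at 0.778 to 3.77 times the level, and the other 9 tested members at 2.76 to 40.3 times. The 13 untested members with over 3 counts in replicates 1 and 3 together ran from 0 to 84.4 times, on few counts. Hist1h1e had 24.2 CPM in replicate 2, against 0.580 and 0.621 CPM in replicates 1 and 3, a ratio of 40.3. Hist1h4d had 21.5 CPM against 1.12 and 0.577 CPM, a ratio of 25.4, and Hist1h1a had 20.4 CPM against 0.759 and 1.86 CPM, a ratio of 15.6. These 3 were the highest members of the library, ahead of Hist1h1c with 14.2 CPM. Hist2h2be, by contrast, had 1.26 CPM against 1.79 and 1.46 CPM, and Hist1h4i 2.71 CPM against 1.96 and 2.35 CPM. The 5 highest members of the other libraries held 11.6% of the histone counts of replicate 2, against 68.6% over the 17.

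**Figure D5:**
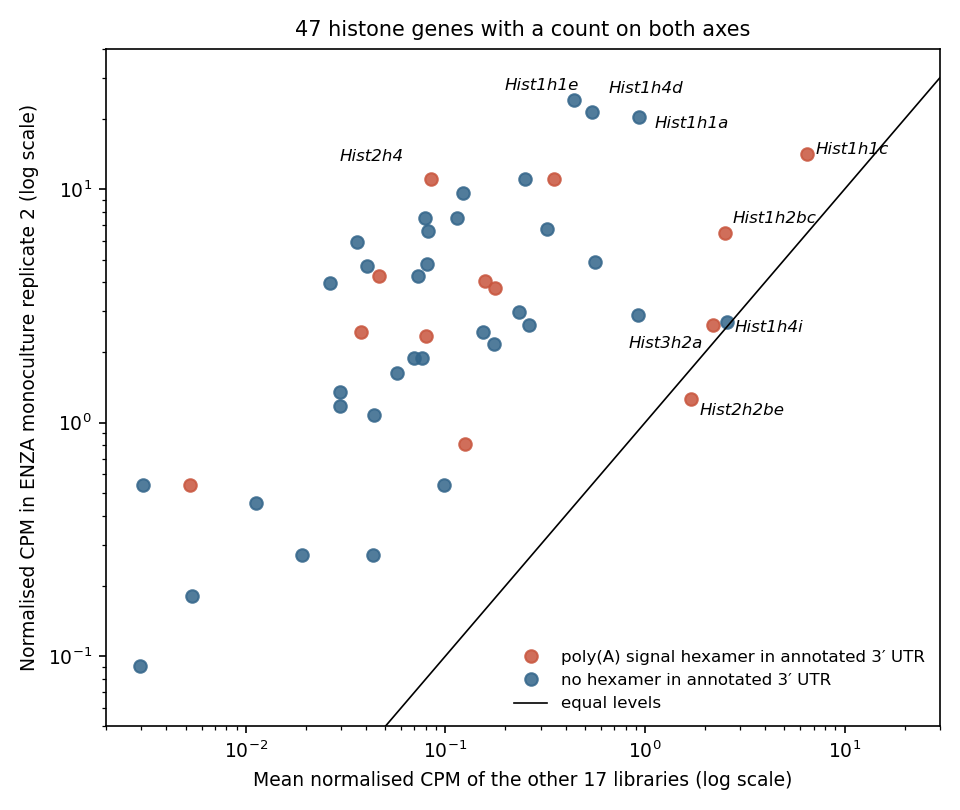
Normalised CPM of 47 histone genes in ENZA monoculture replicate 2 against their mean over the other 17 libraries, both on log axes; the line marks equal levels and colour marks an annotated poly(A) signal hexamer. Most points lie above the line, and Hist2h2be is the named gene below it.

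By class, replicate 2 had 80.9 CPM of H1, 71.6 CPM of H4, 42.0 CPM of H2B, 34.2 CPM of H3 and 7.05 CPM of H2A. Replicates 1 and 3 had 6.02 and 6.97 CPM of H1, 4.02 and 4.44 CPM of H4, 6.07 and 5.59 CPM of H2B, 1.52 and 1.33 CPM of H3, and 2.01 and 2.00 CPM of H2A. H2A thus differed least as a sum. Most of that sum in replicates 1 and 3 was Hist3h2a, with 1.70 and 1.60 CPM, against 2.62 CPM in replicate 2. The linker share was 34.3% in both replicate 2 and replicate 3, yet Hist1h1c made up 17.5% of its linker CPM, against 65.9% and 51.0%. Replacement histone genes had a median ratio of 0.947 over 10 genes (range 0.529 to 1.18). The 30 DNA replication genes had a median ratio of 0.895.

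Genes around the histone messages came from lists of known function. Replacement histone genes, which are also expressed outside S phase, summed to 856 ± 20.8 CPM in ISO co-cultures and 914 ± 12.8 CPM in ENZA co-cultures over the 10 genes used. Of these 10, 3 fell and 2 rose there, where 15.5% of all genes tested were called lower and 14.9% higher. Cenpa, the centromeric H3, had 49.7 ± 2.53 CPM in ISO co-cultures, against 66.3 ± 5.29 CPM in ENZA co-cultures (-0.41 ± 0.060, edgeR adjusted p = 4.84e-06). H2afv, an H2A.Z variant, fell by less (-0.22 ± 0.065, edgeR adjusted p = 0.0115). H1fx, a replacement linker gene, rose at a low level, to 0.731 ± 0.214 CPM in ISO co-cultures, against 0.226 ± 0.0344 CPM in ENZA co-cultures (1.66 ± 0.47, edgeR adjusted p = 0.00730).

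DNA replication genes, which mark S phase, gave more than 1 call in 3 comparisons. Of 30 tested, 12 fell, 0 rose and 18 did not pass between ISO and ENZA co-cultures, where 15.5% of all genes tested were called lower and 14.9% higher, with a median log2 fold change of -0.16 against 0.0024 over all genes tested. Pold1, the catalytic subunit of polymerase delta, had 44.6 ± 3.08 CPM in ISO co-cultures, against 62.7 ± 1.92 CPM in ENZA co-cultures (-0.49 ± 0.061, edgeR adjusted p = 4.1e-07). Between SparcKO and wild-type co-cultures 14 fell and 0 rose, where 6.43% of all genes were called lower, with a median of -0.16 against -0.0031 over all genes. The helicase subunit Mcm5 had 144.9 ± 8.80 CPM in SparcKO co-cultures, against 180.5 ± 9.23 CPM in wild-type co-cultures (-0.32 ± 0.056, edgeR adjusted p = 0.000184). Between SparcKO co-cultures and T23 cells alone 11 fell and 0 rose, where 4.95% of all genes were called lower. The last 2 of these comparisons share the SparcKO libraries. In the other 4 comparisons at most 1 of 30 was called in either direction. Their part in the histone values was not tested.

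Calls among genes of histone message processing, chaperones and transcription stood beside the following shares called among all genes: 15.5% lower and 14.9% higher in ISO against ENZA co-cultures, and 6.43% lower and 8.58% higher in SparcKO against wild-type co-cultures. Slbp, which binds the stem-loop, averaged 39.95 to 44.1 CPM across the 6 groups and was called in no comparison by edgeR, with adjusted p of 0.272 to 0.992. Of 19 tested processing genes, 6 fell and 2 rose in ISO against ENZA co-cultures, and 4 fell and 0 rose in SparcKO against wild-type co-cultures. Those 4 were Srrt, Ncbp1 and Ncbp2, of the cap-binding complex or its partners, and Snrpd3, shared with the spliceosome. Of 18 chaperone genes, 6 fell and 0 rose in ISO against ENZA co-cultures, and 3 fell and 0 rose in SparcKO against wild-type co-cultures. In either direction the chaperone counts were near the 30.4% and 15% of all genes called, but every call was lower. The processing counts, 8 and 4 of 19, lay above these shares by only a few genes, so no excess is read from them. No test was made on these counts. Among the 3 in SparcKO co-cultures was Nasp, a linker and H3-H4 chaperone (-0.29 ± 0.057, edgeR adjusted p = 0.000634). Of 12 transcription genes, 2 fell in each of these 2 comparisons, Ccna2 in both. In the other 5 comparisons at most 3 genes of each of these 3 lists were called.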

How the data were processed

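RNA from T23 cells of 6 groups was made into stranded poly(A) libraries, per the labels' protocols. The authors deposited raw counts per gene, 1 file per library, without normalisation. Per the submitters' processing notes, the tools were STAR 2.6.1d and featureCounts 2.0 on GRCm38, besides cutadapt 2.9, bcl2fastq 2.20.0.422, DESeq2 and FastQC 0.11.9, with no roles stated. Annotation release, strand setting and the treatment of reads with several matches are not given in the sources used here, so counts of overlapping or near-identical histone genes are uncertain.

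Members and gene lists were chosen with earlier results of these data known. Symbols came from GENCODE M21. Counts of 17 libraries were filtered with filterByExpr (minimum count 10), TMM-scaled and put into 1 quasi-likelihood model of the 6 group means (edgeR 4.0.16 under R 4.3.3, with limma 3.58.1). ENZA monoculture replicate 2 was left out. The biological coefficient of variation of the model of 17 libraries was 5.04%, on 11 residual degrees of freedom. Tests were two-sided, adjusted p are Benjamini-Hochberg values over 13886 genes, and SE was taken as the log2 change divided by the root of the F statistic. Levels are CPM on TMM-scaled totals of all 18 libraries, as mean ± SD, except that levels of non-coding RNA biotypes are on unscaled totals. The steps were tested on simulated data.

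Named values were drawn from the 15 highest members, the 3 highest of each class, up to 10 called members per comparison, and Slbp. Up to 3 called genes per list were added to these. Not every gene so chosen is printed, and Snrpd3 was named beyond these without a value. Some genes of these lists and of the marker list are not reported here, and sums and counts leave them out. Members named for ENZA monoculture replicate 2 or among uncalled genes, and Sparc, were chosen after their values were seen. Replicates differed beyond counting error (chi-square per degree of freedom of 2.48 to 12.1, or 569 and 577 in pairs with ENZA monoculture replicate 2). Floors at a count of 0 use 3 counts and cover counting error only. Alternatives were DESeq2 1.42.0, RLE factors, totals without ribosomal RNA, no filter, all 18 libraries, the compared groups alone, a replicate block, the title index series as a term, and each library left out.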

Additional observations from a re-analysis of the deposited data

Results flagged for a closer look

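The summed level of histone genes in ENZA monoculture replicate 2, a library outside every fit, was 235.8 CPM, against 18.6 to 24.9 CPM in T23 cells alone. It stood above all 17 other libraries, of which the highest was an ISO co-culture at 32.2 CPM. Ribosomal RNA took 26.5% of its counts, and the part of that in the histone sum was not tested.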

How the results depend on the processing

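Counts of called members stayed within 1.5 times for ISO against ENZA co-cultures (4 to 5 in all 14 alternatives) and for wild-type co-cultures against T23 cells alone and the interaction (0 in all run). With all 18 libraries the counts became 0 for SparcKO against wild-type co-cultures, 0 for SparcKO co-cultures against T23 cells alone, 6 higher for ENZA monocultures against T23 cells alone, 0 for ENZA against wild-type co-cultures and 2 lower for ENZA co-cultures against ENZA monocultures. SparcKO against wild-type co-cultures gave 3 without a filter (Hist1h1c, Hist1h2bj and Hist1h3f) and 2 with the compared groups alone (Hist1h1c and Hist1h2bj). ENZA against wild-type co-cultures gave 0 with the title index series as a term. Leaving out 1 library each gave 0 to 1 for SparcKO against wild-type co-cultures, where Hist1h4d was the call without wild-type replicate 3, 1 to 3 for SparcKO co-cultures against T23 cells alone, and 0 to 1 for ENZA monocultures against T23 cells alone, where Hist1h1c was called lower without T23 replicate 1. A lone ENZA library was then assumed to vary like the other groups.

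Replicate numbers did not pair libraries: none of 15 group pairs had every same-number correlation over 0.1 (-0.0802 to 0.0689). With the replicate block the counts were 0, 1, 2, 0, 1, 0, 5 and 0 in the 8 contrasts, in which SparcKO co-cultures against T23 cells alone had the 2.

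Over 68 gene results, 801 values kept direction and side, 135 lost the call and 8 changed sign, each for an uncalled Slbp. With 1 library left out at a time, Slbp gave -0.017 to 0.055 in ISO against ENZA co-cultures, below 0 without ENZA co-culture replicate 2 or ISO replicate 1. Its interaction ran from -0.036 to 0.051 with 1 library left out, below 0 without T23 replicate 1, wild-type replicate 1, ENZA monoculture replicate 1 or ENZA co-culture replicate 3, and was -0.0086 with all 18 libraries and -0.00137 with the series term. The cause was not tested. Low levels limit what can be said of most members: 61 of 70 stayed under 1 CPM in the 17 libraries.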
